A study of Mus musculus with 6 samples.

Results

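The genes described here are 35 mouse genes for nucleolar proteins and ribosome assembly factors. They were chosen by name, as genes known for this pathway, at a time when earlier results of these data were known. Each was found once in the deposited table of 48432 genes, and all 35 were among the 14307 genes tested. The RNA came from hepatocytes of FVB mice and was selected for poly(A) before sequencing. There were 3 groups of 2 samples each: adults on normal feed, adults fed DDC for 4 weeks, and livers at embryonic day 18 (E18). DDC makes porphyrins build up and damages the liver when given for weeks in the feed. Each E18 sample was a pool of livers from about 8 embryos, so each of its values is a mean over embryos. The labels give no genetic alteration, no adult age, and no statement of how many adult animals were used. The p-values therefore measure only the spread between these samples, which may be technical. Samples are called 0 and 1 within a group, after the columns of the table.

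Ribosomes are assembled in the nucleolus. RNA polymerase I (Pol I) transcribes the ribosomal RNA precursor, and small nucleolar RNA (snoRNA) particles guide its chemical modification. The box C/D particles methylate riboses and the box H/ACA particles convert uridine to pseudouridine. The precursor is folded and cut within a large complex, the small subunit processome, and separate sets of factors then assemble the small and large subunits. Growing and dividing cells spend much of their transcription on this pathway, and genes of the pathway are well known targets of the transcription factor Myc. In adult liver most hepatocytes rest, while the fetal liver grows and is also a site of blood formation.

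Levels are in TPM, transcript shares that are corrected for transcript length and sum to a fixed total in each sample. Differences are of log2(TPM + 1), given ± SE with p-values from limma adjusted over the genes tested, and a gene is said to rise or fall where the adjusted p is under 0.05. No counts were at hand, so depth is unknown. TPM is a share, so the scaling matters in these samples. Over all genes tested the median difference from normal fed adults was 0.45 in DDC fed adults and 1.06 at E18. Median-ratio scaling, which centres each sample on its typical gene, moved these medians to 0 and 0.087. Counts under that scaling are therefore given beside the counts on the deposited values. The normal fed samples also differed more from each other than the samples of the other groups, with a median absolute difference over all genes of 0.37 against 0.125 for DDC fed and 0.17 for E18.

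Markers of cell types also differed between the groups. The summed TPM of 14 hepatocyte markers was 33533 and 23630.2 in the normal fed samples, 20414 and 19729 in the DDC fed samples and 8397 and 5291 at E18, with albumin (Alb) listed at 0 in all 6 samples. Serpina1a and Serpina1b were also listed at 0 in normal fed adults, Serpina1b in DDC fed adults and Fgb at E18, so these sums hold different genes in each group. Of the 13 hepatocyte markers tested, 1 rose and 2 fell in DDC fed adults (34.2% and 3.07% of all genes), with a median difference of -0.033. At E18, 2 rose and 10 fell (63.0% and 12.7% of all genes), with a median of -1.75. The 10 leukocyte markers, among them S100a8, S100a9, Ngp and Mpo, summed to 1.27 and 0.994 TPM in normal fed adults, 9.64 and 11.3 TPM in DDC fed adults and 52964 and 62778 TPM at E18, with Mpo, Ngp and S100a9 listed at 0 in both normal fed samples. The 10 erythroid markers summed to 26.4 and 17.0, then 9.10 and 8.45, then 12499 and 23584 TPM in the same order. All 9 tested markers of each of these lists rose at E18, and the E18 samples carried far more of this RNA than either adult group. The 8 cell division markers summed to 30.5 and 31.1, then 269 and 232, then 1313 and 1703 TPM, and all 8 rose in DDC fed adults and at E18. The 8 cholangiocyte markers summed to 14.2 and 12.2, then 85.4 and 107, then 152 and 97.9 TPM. Of the 6 tested, 2 rose in DDC fed adults and 4 at E18. In bulk RNA of this kind, fewer cells of a type and less RNA per cell cannot be told apart.

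Together the 35 genes made up 0.114% and 0.103% of all TPM in the normal fed samples, 0.119% and 0.123% in the DDC fed samples, and 0.378% and 0.408% at E18. The 6 nucleolar chaperones and abundant nucleolar proteins held the largest part of this sum, 442 and 429 TPM in normal fed adults and 2062 and 2214 TPM at E18. The 3 Pol I genes held the smallest, 42.5 and 21.6 TPM and 68.4 and 70.3 TPM. Npm1 (nucleophosmin, a nucleolar chaperone) had the highest mean level of the 35 genes over the 6 samples. It was followed by Ncl (nucleolin, which binds the ribosomal RNA precursor) and by the 3 box C/D proteins Nop58, Nop56 and Fbl. In the plot of levels by sample the adult groups overlap for 18 of the 35 genes and are apart for 17. Of these, 12 were higher in DDC fed adults, where 62.4% of all genes tested were higher without overlap. The other 5 were lower, where 8.99% of all genes tested were. For most of the 35 genes the E18 samples lie to the right of both adult groups.

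**Figure D1:**
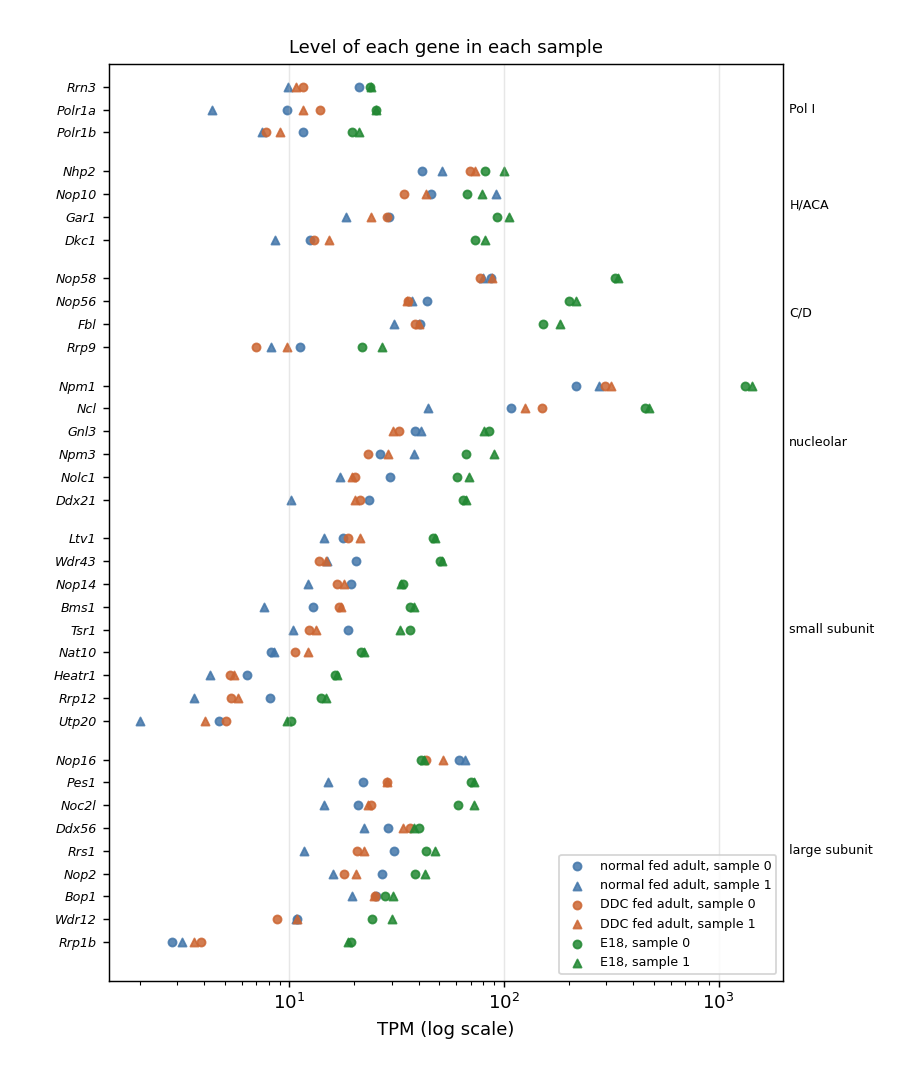
Level of each of the 35 genes in each of the 6 samples, in TPM on a log axis, ordered by role and by mean level. Circles are samples 0 and triangles samples 1; for most genes the E18 points lie to the right of all adult points, while Nop16 has its highest points in the normal fed samples.

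The comparison of E18 with normal fed adults asks how the embryonic and adult samples differ. On the deposited values 31 of the 35 genes rose, where 63.0% of all genes tested did, and 1 of 35 fell, where 12.7% did. The median difference of the 35 genes was 1.41, against 1.06 over all genes tested. Both E18 levels were above both normal fed levels in 33 of the 35 genes (69.7% of all genes tested), the exceptions being Nop16 and Nop10. Under median-ratio scaling 14 rose (38.0% of all genes) and 3 fell (31.8%), and the median difference was 0.31. Of the 35 genes, 12 rose on the deposited values, under median-ratio scaling and with a correction for exon length: Dkc1, Gar1, Fbl, Nop56, Nop58, Npm1, Ncl, Ddx21, Bms1, Pes1, Rrp1b and Noc2l. Of all genes tested 31.3% rose under these 3 settings, so the share of the 35 is near the background. For 9 others the sign of the difference turned under median-ratio scaling: Polr1b, Rrn3, Nop10, Nhp2, Gnl3, Nop14, Bop1, Nop2 and Ddx56. The markers of blood cells and of cell division given above also moved with these genes. So did those of macrophages (12 of 12 rose, to 4047 and 5202 TPM from 161 and 133), of endothelial cells (9 of 9, to 483 and 480.1 from 44.9 and 14.8) and of stellate cells and fibroblasts (9 of 10, to 325 and 297 from 28.4 and 12.9). The part of these cells in the result was not tested. Within E18, 29 of the 35 genes were higher in sample 1 than in sample 0. The median of sample 1 minus sample 0 was 0.073 over the 35 genes and 0.0088 over all genes tested. The gaps were small, with a median absolute difference of 0.080 over the 35 genes and 0.17 over all genes tested.

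The box C/D proteins were the role class with the largest median difference at E18, 2.10. All 4 rose, where 63.0% of all genes tested did. Nop56 and Nop58 are the paired core proteins that hold the guide RNA, and Fbl (fibrillarin) is the methyltransferase. Nop56 (GRCm38 chr2:130274430-130279313) was at 43.6 and 37.4 TPM in normal fed adults, 35.6 and 35.2 in DDC fed adults and 201 and 217 at E18. The adult samples lay close together and both E18 samples far above them. The difference between E18 and normal fed was 2.34 ± 0.19 (adjusted p = 3.67e-05). Nop58 (chr1:59684971-59719044) was at 87.3 and 79.7 TPM in normal fed adults, 77.2 and 87.5 in DDC fed adults and 331 and 341 at E18, with a difference of 2.0 ± 0.19 (adjusted p = 9.25e-05). Fbl (chr7:28169710-28179269) was at 40.5 and 30.7 TPM in normal fed adults, 38.6 and 40.3 in DDC fed adults and 151 and 181 at E18, with a difference of 2.2 ± 0.22 (adjusted p = 0.000105). Both showed the same arrangement as Nop56, with no overlap between E18 and the adults. Rrp9, which binds the U3 snoRNA of the processome, had the smallest difference of the class, 1.25 ± 0.26, and was not called under median-ratio scaling.

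Of the 4 box H/ACA proteins 3 rose, where 63.0% of all genes tested did. Dkc1 (dyskerin, the pseudouridine synthase) had the largest difference of all 35 genes. It lies at chrX:75095854-75109777 and was at 12.5 and 8.60 TPM in normal fed adults, 13.1 and 15.4 in DDC fed adults and 73.1 and 81.8 at E18. The E18 levels were several times those of every adult sample. The difference was 2.78 ± 0.23 (adjusted p = 4.75e-05), and its rank by TPM in the sample went from 5684 and 5910 in the normal fed samples to 2140 and 1899 at E18, counted from the highest. Gar1, its partner in the particle, differed by 2.05 ± 0.26. Under median-ratio scaling the difference was 1.63 for Dkc1 and 0.87 for Gar1. Nhp2 differed by 0.95 ± 0.21 on the deposited values, with the opposite sign under median-ratio scaling. Nop10, the smallest subunit, was the exception: it was at 45.4 and 92.1 TPM in normal fed adults, 34.2 and 43.1 in DDC fed adults and 67.0 and 78.6 at E18. Its normal fed samples lay on either side of both E18 samples, and the difference of 0.16 (95% interval -0.66 to 0.98, adjusted p = 0.681) did not pass.

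All 6 nucleolar chaperones and abundant nucleolar proteins rose on the deposited values (63.0% of all genes tested did), with a median difference of 1.74. Under median-ratio scaling 3 of the 6 rose, Npm1, Ncl and Ddx21, where 38.0% of all genes tested did. The median was 0.58, and Npm3, Nolc1 and Gnl3 were not called. Npm1 (chr11:33152287-33163206) was at 216 and 278 TPM in normal fed adults, 296 and 317 in DDC fed adults and 1333 and 1432 at E18. Its rank in the sample went from 700 and 539 in the normal fed samples to 106 and 100 at E18. The difference was 2.49 ± 0.24 (adjusted p = 8.65e-05), with no overlap between the groups. Ncl (chr1:86344719-86359400) was at 108 and 44.0 TPM in normal fed adults, 149.6 and 126 in DDC fed adults and 452 and 476 at E18. The normal fed samples stood far apart from each other, yet both were below the other 4 samples. The difference was 2.73 ± 0.40 (adjusted p = 0.000765), with an SE larger than that of Npm1. Under median-ratio scaling the difference was 1.29 for Npm1 and 1.54 for Ncl. Ddx21, an RNA helicase of the nucleolus, differed by 2.0 ± 0.35, Nolc1, which accompanies snoRNA particles, by 1.48 ± 0.27, and Npm3, a relative of Npm1, by 1.26 ± 0.27. Gnl3 (nucleostemin, a nucleolar GTPase) differed least in this class, by 1.04 ± 0.18, and its sign turned under median-ratio scaling.

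All 9 genes of the small subunit processome and small subunit assembly rose on the deposited values, where 63.0% of all genes tested did. Their differences lay within a narrow range from 1.08 (Nop14) to 1.81 (Bms1, a GTPase of the processome). Their levels ran from 2.01 to 20.4 TPM in normal fed adults, from 4.05 to 21.3 TPM in DDC fed adults and from 9.74 to 51.3 TPM at E18, with Utp20 the lowest in each group. Wdr43, Utp20 and Nop14, components of the processome, differed by 1.49 ± 0.21, 1.41 ± 0.32 and 1.08 ± 0.25. Rrp12, Tsr1 and Ltv1, which act later in maturation or export of the small subunit, differed by 1.25 ± 0.33, 1.24 ± 0.29 and 1.5 ± 0.20, and Nat10, which acetylates cytidines of the small subunit RNA, by 1.30 ± 0.19. On the deposited values both E18 samples were above both normal fed samples in all 9, while the sign turned for Nop14 under median-ratio scaling and for Utp20 and Nat10 with the exon length correction. Under median-ratio scaling only Bms1 and Heatr1, a processome scaffold protein, rose among them, where 38.0% of all genes tested did. The 9 large subunit genes were the most mixed class, with 7 that rose (63.0% of all genes) and 1 that fell (12.7%). Rrp1b, a nucleolar protein of the large subunit pathway at chr17:32036100-32062865, was at 2.85 and 3.16 TPM in normal fed adults, 3.89 and 3.60 in DDC fed adults and 19.3 and 18.8 at E18. It was among the lowest in level of the 35 genes in adults, and its difference of 2.32 ± 0.18 (adjusted p = 3.51e-05) was one of the largest. Under median-ratio scaling that difference was 1.28. Pes1 and Noc2l, both required for large subunit maturation, differed by 1.90 ± 0.23 and 1.88 ± 0.23. Wdr12, the third protein of the complex of Pes1 and Bop1, differed by 1.25 ± 0.21, Rrs1 by 1.22 ± 0.41 and Nop2, a methyltransferase of the large subunit RNA, by 0.92 ± 0.27. Nop16, a nucleolar protein of the same pathway at chr13:54584185-54590090, went the other way, at 62.0 and 65.6 TPM in normal fed adults, 43.5 and 51.9 in DDC fed adults and 41.1 and 42.3 at E18. Both E18 samples were below both normal fed samples, and the difference was -0.60 ± 0.19 (adjusted p = 0.0233), lower under each of the 3 scalings. That call was lost when any single DDC fed or E18 sample was left out of the fit. Bop1, the partner of Pes1, was at 25.3 and 19.6 TPM in normal fed adults, 25 and 24.8 in DDC fed adults and 27.9 and 30.5 at E18. Its E18 levels were above the normal fed levels by a small step, and the difference of 0.37 (95% interval -0.11 to 0.86, adjusted p = 0.133) did not pass. Under median-ratio scaling Bop1 and Ddx56 fell, as did Nop16 and 31.8% of all genes tested.

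Of the 3 Pol I genes 2 rose, where 63.0% of all genes tested did. Polr1a and Polr1b, which form the catalytic centre of the enzyme, differed by 1.79 ± 0.34 and 1.05 ± 0.25. The sign turned for Polr1b under median-ratio scaling. Rrn3, the factor that brings Pol I to its promoter, was at 21.2 and 9.81 TPM in normal fed adults, 11.5 and 10.7 in DDC fed adults and 23.6 and 23.9 at E18. Normal fed sample 0 was close to the E18 samples and normal fed sample 1 to the DDC fed samples, and the difference of 0.68 (95% interval -0.13 to 1.48, adjusted p = 0.106) did not pass. The 3 genes that did not pass were picked out after their values were seen.

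**Figure D2:**
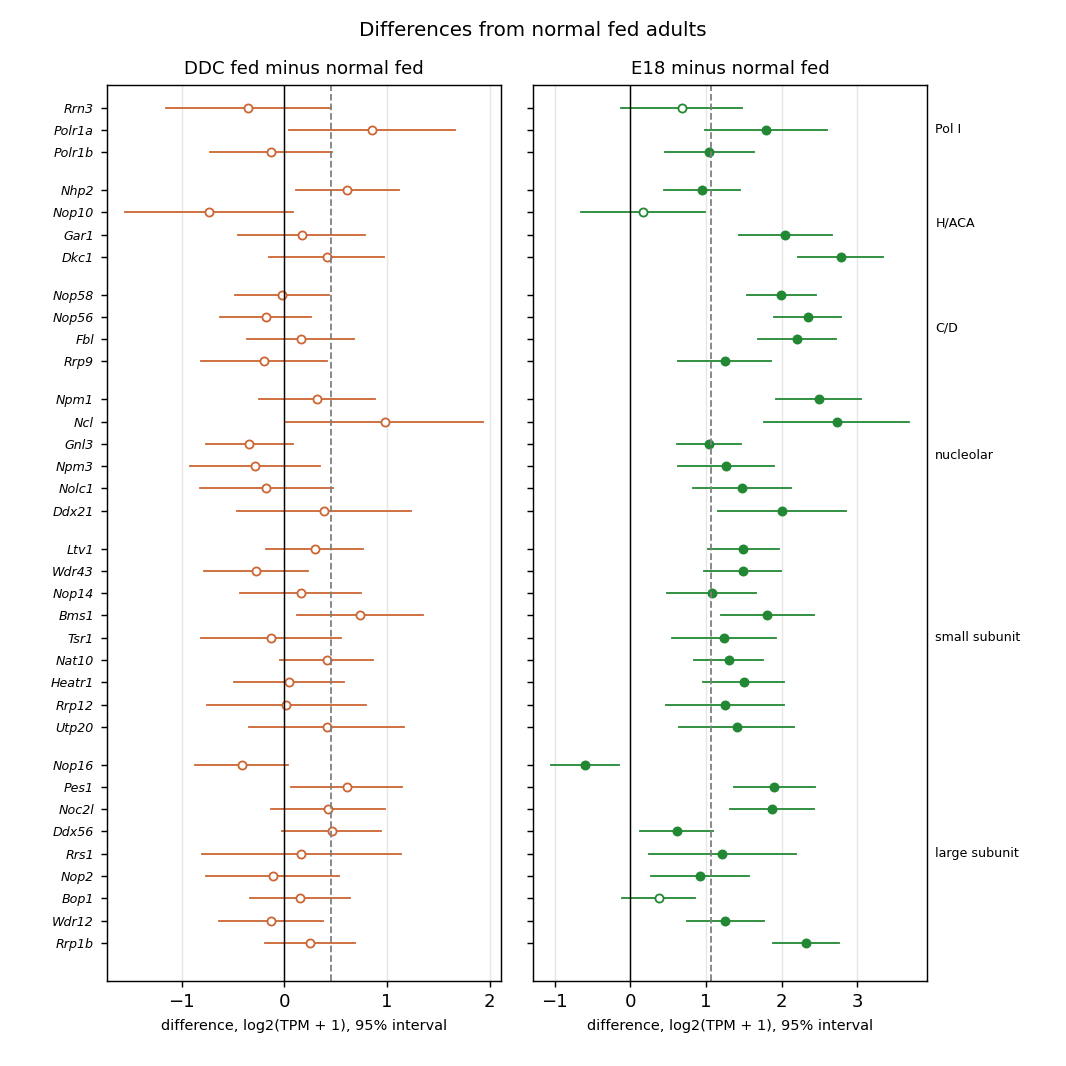
Difference of each gene from normal fed adults on the scale of log2(TPM + 1), with its 95% interval, for DDC fed adults (left) and E18 (right). Filled points passed an adjusted p of 0.05 and open points did not; the dashed lines mark the median over all genes tested, 0.45 and 1.06. All points on the left are open, and on the right all but 3 are filled, with Nop16 below 0.

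DDC fed against normal fed adults asks how these genes differ after 4 weeks of DDC feeding. None of the 35 rose or fell by limma (0 of 35 in each direction), where 34.2% of all genes tested rose and 3.07% fell. At an unadjusted p under 0.05, 5 were higher and 0 lower, against 6204 and 611 of the 14307 genes tested. The differences ran from -0.74 (Nop10) to 0.98 (Ncl), with a median of 0.16 against 0.45 over all genes tested. The 95% interval lay within 1 log2 unit of 0 on both sides for 25 of the 35 genes. The groups did not overlap for 12 genes that were higher (62.4% of all genes) and 5 that were lower (8.99%), and they overlapped for 18. Under median-ratio scaling 14 of the 35 fell (11.6% of all genes) and none rose (20.5% of all genes), with a median difference of -0.50. At an unadjusted p under 0.05 by limma, 19 were lower and 0 higher there, against 2807 and 3658 of the 14307 genes tested. The 14 were Nolc1, Bop1, Rrn3, Nop16, Wdr12, Nop58, Polr1b, Nop56, Nop2, Tsr1, Wdr43, Rrp9, Gnl3 and Heatr1. Nop10 had the lowest difference of the 35 under this scaling, -1.40, and did not pass (adjusted p = 0.0569), while it did pass with the exon length correction (-0.95, adjusted p = 0.0439). This comparison and the one with E18 share the normal fed samples.

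The 5 genes with the smallest p in this comparison were Nhp2, Bms1, Pes1, Polr1a and Ncl, all higher in the DDC fed samples and none past the threshold. Nhp2, a core protein of the box H/ACA particle, was at 41.7 and 51.2 TPM in normal fed adults, 69.1 and 73.6 in DDC fed adults and 81.3 and 100.3 at E18. All 3 groups were apart, with the DDC fed samples in between, and the difference of DDC fed from normal fed was 0.61 ± 0.21 (adjusted p = 0.0597). It was -0.048 under median-ratio scaling. Bms1 was at 12.8 and 7.65 TPM in normal fed adults, 17.0 and 17.5 in DDC fed adults and 36.4 and 38.1 at E18, a difference of 0.74 ± 0.26 (adjusted p = 0.0624). Pes1, which works with Bop1 and Wdr12 in large subunit processing, was at 22.1 and 15.1 TPM in normal fed adults, 28.4 and 28.4 in DDC fed adults and 70.1 and 72.4 at E18. Its DDC fed samples were almost equal and above both normal fed samples, with a difference of 0.61 ± 0.23 (adjusted p = 0.076) that turned to -0.039 under median-ratio scaling. Polr1a was at 9.77 and 4.33 TPM in normal fed adults, 13.9 and 11.6 in DDC fed adults and 25.3 and 25.3 at E18, a difference of 0.85 ± 0.34 (adjusted p = 0.0911). For Ncl, whose levels are given above, the difference was 0.98 ± 0.40 (adjusted p = 0.0994), and its interval from 0.020 to 1.94 was among the widest.

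Of the 5 most abundant genes, the 4 other than Ncl had differences between the adult groups smaller in size than that of Ncl. The difference was 0.32 ± 0.24 for Npm1, -0.020 ± 0.19 for Nop58, -0.18 ± 0.19 for Nop56 and 0.16 ± 0.22 for Fbl, none past the threshold. Their 95% intervals allowed differences from -0.25 to 0.89 for Npm1 and from -0.48 to 0.44 for Nop58. By role class the median difference on the deposited values ran from -0.13 for the 3 Pol I genes to 0.29 for the 4 box H/ACA genes. Among the markers, the 12 of macrophages summed to 161 and 133 TPM in normal fed adults and 1311 and 1607 TPM in DDC fed adults, and the 10 of stellate cells and fibroblasts to 28.4 and 12.9 against 362 and 327 TPM. Of the macrophage markers 12 of 12 rose in DDC fed adults, and of the stellate cell and fibroblast markers 9 of 10, as did 8 of 9 endothelial markers (44.9 and 14.8 against 158 and 169 TPM) and all 8 cell division markers. The part of these cells in the levels of the 35 genes was not tested.

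The rank of a gene among all genes of its own sample does not change when that sample is scaled by a common factor. It can change with the exon length correction, and the ranks here are on the deposited values. They were looked at after the values were seen. In the DDC fed samples 25 of the 35 genes stood further from the top than in both normal fed samples (38.3% of all genes tested did), and 0 of 35 stood nearer to it (31.9%). At E18 20 of the 35 stood nearer to the top (41.1%) and 6 further from it (43.3%), the latter being Polr1b, Rrn3, Utp20, Bop1, Nop16 and Ddx56. Ranks also shift when more genes are detected, and the DDC fed samples listed more genes at 1 TPM or above than the normal fed samples, 12204 and 12322 against 10792 and 10401. The E18 samples listed 13983 and 13748.

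**Figure D3:**
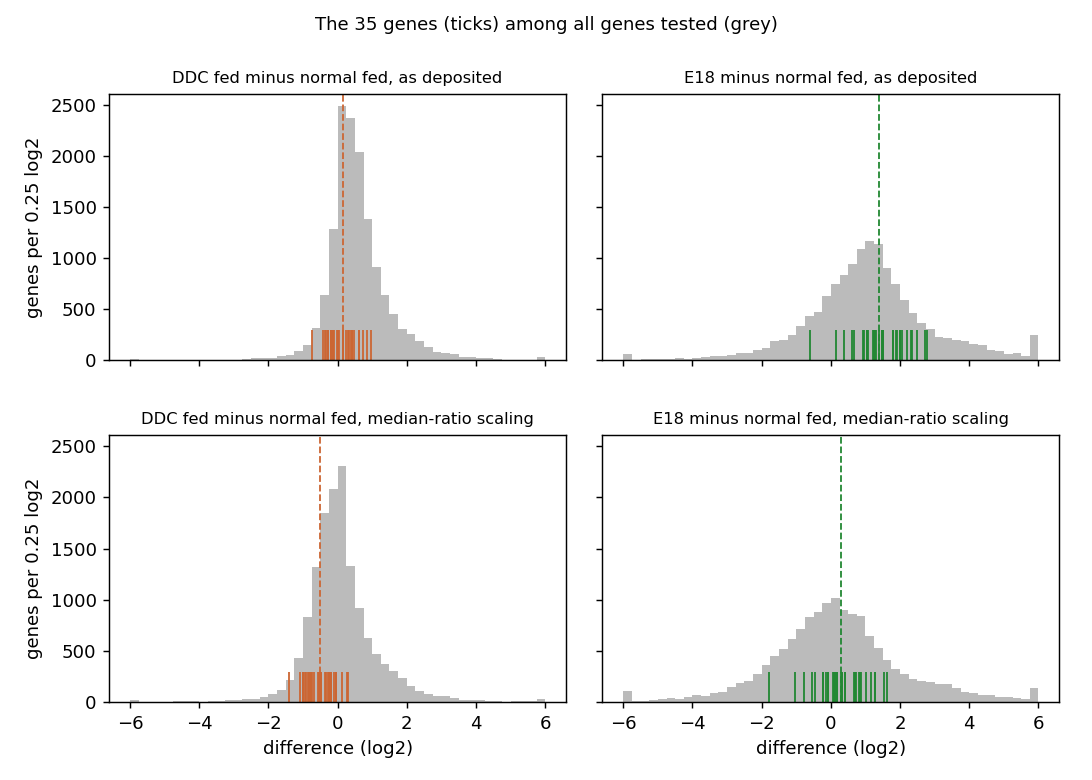
Differences of the 35 genes (coloured ticks, dashed line at their median) among all 14307 genes tested (grey bars, genes per bin of 0.25 log2), on the deposited values (top) and under median-ratio scaling (bottom); the outermost bars hold all genes beyond them. In the DDC comparison the dashed line moves from 0.16 to -0.50 and in the E18 comparison from 1.41 to 0.31.

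The DDC comparison rests on the normal fed samples, which differed from each other in most of the 35 genes. Sample 1 was lower than sample 0 in 27 genes and higher in 8, with a median difference of -0.48, against -0.22 over all genes tested. For the DDC fed pair the median was 0.090 and for the E18 pair 0.073. The largest gaps were in Rrs1, an assembly factor of the large subunit (30.6 and 11.6 TPM, a difference of -1.33), in Ncl (108 and 44.0 TPM, -1.28) and in Ddx21 (23.5 and 10.2 TPM, -1.12). Nop10 went the other way (45.4 and 92.1 TPM, 1.0), as did Npm3 (0.52), Npm1 (0.36) and Nhp2 (0.29). Across the 35 genes the gap had a Spearman correlation of -0.26 with total exon length. For the DDC fed pair it was -0.30 and for the E18 pair -0.38. A rank correlation leaves out the size of the gaps. Their median absolute size was 0.50 in the normal fed pair, 0.10 in the DDC fed pair and 0.080 in the E18 pair. The part of exon length in the gaps was not tested. These values are descriptions over genes that share both libraries of a group.

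**Figure D4:**
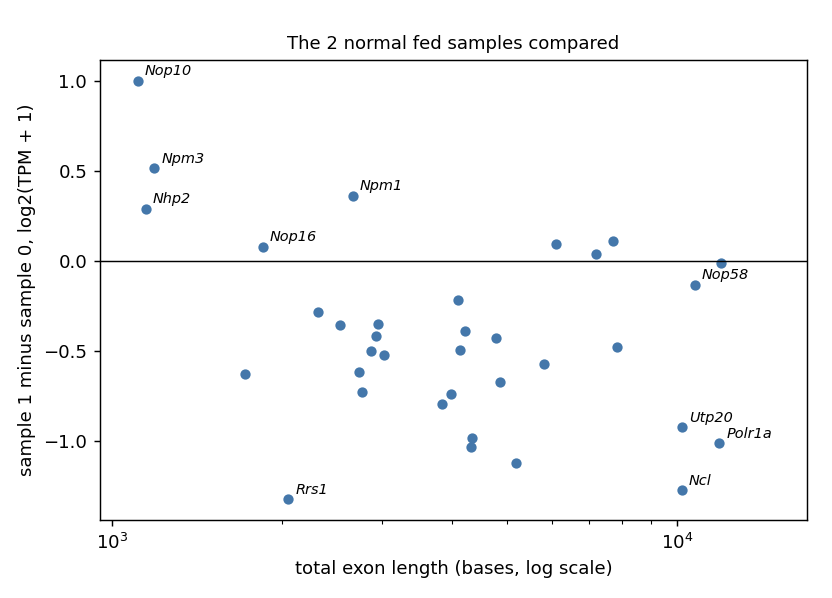
Difference between the normal fed samples (sample 1 minus sample 0, log2(TPM + 1)) against total exon length on a log axis, 1 point per gene. Of the 35 points 27 lie below 0; Nop10 at 1.0 and Rrs1 at -1.33 are the extremes, with exon lengths of 1109 and 2048 bases.

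With normal fed sample 0 left out, 13 of the 35 genes rose in DDC fed adults, where 55.7% of all genes tested did, and 3 fell, where 6.90% did. The 13 were Utp20, Ddx56, Ltv1, Ddx21, Pes1, Ncl, Bms1, Dkc1, Rrp12, Nop14, Polr1a, Rrs1 and Noc2l, and the 3 were Nop16, Nop10 and Gnl3. With normal fed sample 1 left out, 1 rose (Nhp2; 32.9% of all genes) and 5 fell (Nolc1, Rrn3, Tsr1, Wdr43 and Rrs1; 4.81% of all genes). Rrs1 passed the threshold both ways, at 0.83 without sample 0 and at -0.50 without sample 1. In each of these fits the lone normal fed sample is taken to vary as much as the other groups do. With a DDC fed or an E18 sample left out, none of the 35 passed.

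DDC fed adults against E18 sets the treated adults beside the embryos. On the deposited values 29 of the 35 genes were lower in the DDC fed samples at an adjusted p under 0.05, where 47.0% of all genes tested were. None was higher (0 of 35, 17.7% of all genes). At an unadjusted p under 0.05 by limma, 0 of the 35 were higher, against 2733 of the 14307 genes tested. The median difference was -1.37, against -0.55 over all genes. Levels were lower without overlap in 34 of 35 genes (61.8% of all genes), the exception being Nop16. Under median-ratio scaling 24 were lower (34.1%) and 1 was higher, Nop16 (27.9%), with a median of -0.85 against -0.081 over all genes. Of the 35 genes, 31 stood further from the top in rank in the DDC fed samples (44.1% of all genes) and 3 stood nearer to it (43.7%), Bop1, Nop16 and Ddx56.

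The 6 smallest adjusted p-values belonged to Nop56, Rrp1b, Nop58, Dkc1, Fbl and Npm1, with differences of -2.53 ± 0.19, -2.08 ± 0.18, -2.02 ± 0.19, -2.37 ± 0.23, -2.04 ± 0.22 and -2.17 ± 0.24. The adjusted p ran from 4.27e-05 for Nop56 to 0.000257 for Npm1. All 4 box C/D proteins, all 6 nucleolar proteins, all 9 small subunit genes and all 3 Pol I genes were lower in DDC fed adults on the deposited values. Of all genes tested 47.0% were. Under median-ratio scaling this held for 4 of 4, 6 of 6, 6 of 9 and 1 of 3, against 34.1% of all genes tested. The 6 genes that did not pass were Nop10, Nhp2, Bop1, Nop16, Ddx56 and Rrs1. Of these, Nop10 (-0.90) and Rrs1 (-1.05) had an adjusted p of 0.0541 and 0.0564. The fit takes the spread of each gene from all 3 groups, the normal fed samples included. Both genes passed as lower with the replicate block. With only the 2 compared groups in the fit, 31 of the 35 were lower, as were 7895 of the 14307 genes tested. For Nhp2 the difference was -0.34 (95% interval -0.84 to 0.17), for Bop1 -0.22 (-0.71 to 0.26), for Ddx56, a helicase of the large subunit pathway, -0.15 (-0.64 to 0.33), and for Nop16 0.18 (-0.27 to 0.63). These 6 were picked out after their values were seen.

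Shares within a complex do not change when all values of a sample are scaled by a common factor. The exon length correction differs between genes and would change them, and the shares here are on the deposited values. Of the summed TPM of the 4 box H/ACA proteins, Dkc1 held 9.74% and 5.05% in the normal fed samples, 9.02% and 9.85% in the DDC fed samples and 23.3% and 22.4% at E18. The Dkc1 share was thus higher at E18 than in every adult sample. Nhp2 held 32.4% and 30.1%, then 47.7% and 47.2%, then 25.9% and 27.4% in the same order, highest in the DDC fed samples. Nop10 held 35.3% and 54.1%, then 23.6% and 27.6%, then 21.3% and 21.5%, highest in the normal fed samples, where its level also varied most. In the box C/D core Fbl held between 20.8% and 25.5% in every sample. Nop56 held 29.5% and 29.3% at E18, above the 21.6% to 25.4% of the adult samples, and Nop58 48.4% and 46.1%, below their 50.9% to 53.9%. In the PeBoW complex, in which Pes1, Bop1 and Wdr12 act together on the large subunit, Pes1 held 38.0% and 33.3% in the normal fed samples, 45.7% and 44.4% in the DDC fed samples and 57.3% and 54.5% at E18. Bop1 held 43.5% and 43.1%, then 40.2% and 38.6%, then 22.8% and 22.9%. The 3 groups did not overlap in the share of either gene, and the DDC fed samples lay between the other groups for both. Levels of mRNA say nothing of protein ratios, and these shares carry no test.

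**Figure D5:**
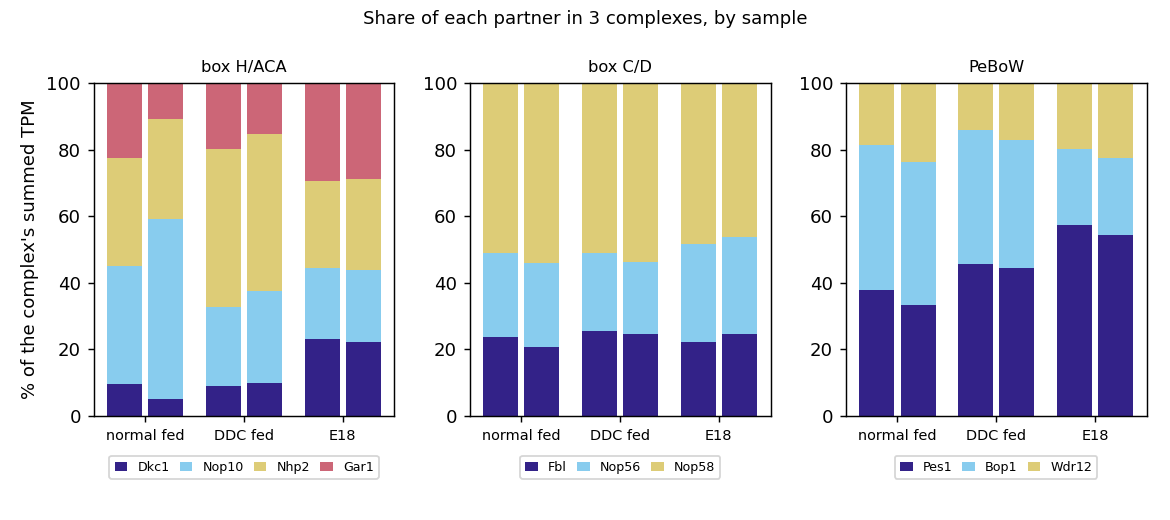
Share of each partner in the summed TPM of its complex, as stacked bars, 1 bar per sample in the order sample 0 and sample 1 within each group. Dkc1 makes up 5.05% to 9.85% of the box H/ACA bar in adults and 22.4% to 23.3% at E18, the Nop56 part of box C/D is 21.6% to 25.4% in adults and 29.3% to 29.5% at E18, and the Bop1 part of PeBoW shrinks from 43.1% to 43.5% in normal fed adults to 22.8% to 22.9% at E18.

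Other genes of the pathway were taken from lists by role. At E18 against normal fed adults, 36 of 48 other small subunit genes rose and 1 fell (Rcl1), and 41 of 52 other large subunit genes rose and 0 fell. Among other snoRNA particle and assembly genes 10 of 11 rose, led by Ruvbl2 (2.45), an ATPase that helps to assemble the particles, and Naf1 (2.24), which assists box H/ACA assembly. Of 18 other Pol I genes 11 rose and 1 fell (Polr2l, a subunit shared by all RNA polymerases, -0.70). Tcof1 (treacle, a Pol I cofactor) was at 3.31 and 1.89 TPM in normal fed adults, 4.58 and 4.44 in DDC fed adults and 24.3 and 29.0 at E18, a difference of 2.96 ± 0.25 (adjusted p = 4.75e-05). Of 17 nucleases and exosome genes 12 rose, led by Exosc8, a subunit of the exosome (2.98). Under median-ratio scaling the counts of rises were 7 of 48, 5 of 52, 4 of 11, 3 of 18 and 9 of 17, and those of falls 14, 14, 1, 3 and 3. Over all genes tested, 63.0% rose and 12.7% fell on the deposited values, and 38.0% rose and 31.8% fell under median-ratio scaling. Tcof1, Naf1, Ruvbl2 and Exosc8 rose under both scalings.

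In DDC fed against normal fed adults, where 34.2% of all genes tested rose, the counts of rises were 3 of 48 small subunit genes (Rrp7a, Ddx52 and Dhx37), 8 of 52 large subunit genes, 1 of 11 snoRNA particle genes (Rpap3), 1 of 18 Pol I genes (Taf1b) and 6 of 17 nucleases and exosome genes. None fell in these 5 lists by limma (3.07% of all genes). At an unadjusted p under 0.05, 2 small subunit genes were lower, as were 611 of the 14307 genes tested. Eif6, which keeps the large subunit from joining the small one too early, was at 54.5 and 41.8 TPM in normal fed adults, 148 and 149 in DDC fed adults and 76.3 and 79.6 at E18. The DDC fed samples were above all others, with a difference from normal fed of 1.61 ± 0.20 (adjusted p = 0.00133) and from E18 of 0.92 ± 0.20 (adjusted p = 0.00706). Exosc8 was at 11.5 and 8.67 TPM in normal fed adults, 27.4 and 28.3 in DDC fed adults and 79.5 and 92.4 at E18, a difference of 1.39 ± 0.21 (adjusted p = 0.00276), and Eri1, an exonuclease that trims a ribosomal RNA end, differed by 1.20 ± 0.20. Eif6, Exosc8 and Eri1 were the genes of these lists that still rose under median-ratio scaling, where 2 Pol I, 1 snoRNA particle, 10 small subunit, 17 large subunit and 2 nuclease genes fell (20.5% of all genes rose and 11.6% fell there).

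Myc and its network were read as a list of 11 genes. Myc was at 22.9 and 2.44 TPM in normal fed adults, 32.7 and 54.7 in DDC fed adults and 93.8 and 104 at E18. The normal fed samples differed more for Myc than for any of the 35 genes, with sample 1 the lower. Myc rose at E18 (3.46 ± 0.81, adjusted p = 0.00686), while its difference in DDC fed adults, 2.26 ± 0.81, did not pass (adjusted p = 0.0685). Of the 11 genes 8 rose at E18 (63.0% of all genes) and 2 fell, Mycl and Mlx (12.7%), and under median-ratio scaling 7 rose and 3 fell. In DDC fed adults 1 rose, Mxd3 (1.83), and 1 fell, Mycn (-0.63), both at low levels (34.2% and 3.07% of all genes), and under median-ratio scaling 1 rose and 3 fell.

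Features of the genes that the choice did not use were also tabulated. In GENCODE M21, 7 of the 35 genes (20%) have a snoRNA gene within their bounds, against 1.71% of the 13065 protein-coding genes tested. These hosts are Nop56 with 5 snoRNA genes, Nop58 with 4, Ncl, Gnl3 and Wdr43 with 3 each, Tsr1 with 2 and Dkc1 with 1. The snoRNAs themselves lack a poly(A) tail and were not read here. On the genome, 10 of the 35 genes overlap a tested gene on the opposite strand and 0 on the same strand, with no share over all genes given here. These are Dkc1, Nhp2, Nop56, Rrp9, Gnl3, Heatr1, Tsr1, Bop1, Wdr12 and Noc2l. The library kit keeps the strand, and no source used here says whether the counting used it.

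The sequence CACGTG, the canonical E-box bound by Myc with Max, was searched in promoters of RefSeq on GRCm38.p6, from 250 bases before to 50 bases after the start of each gene. Of the 35 genes 30 had an entry. CACGTG, which reads the same on both strands, was found in 7 of the 30 (23.3%), against 11.5% of the 10686 genes tested with an entry and 8.09% of all 27025 genes. The looser form CANNTG was found in 22 of 30 (73.3%), against 68.2% of the genes tested. A match describes the letters only and shows no binding. The 8 sites in these 7 genes read as follows, 5′ to 3′ on the strand of the gene, with CACGTG in capitals and 12 bases on each side (fewer where the window ends), and are printed because Myc itself rose at E18.
Ltv1 (chr10:13193092-13193121, minus strand): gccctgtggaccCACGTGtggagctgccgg
Nop2 (chr6:125131811-125131840, plus strand): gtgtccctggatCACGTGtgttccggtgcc
Pes1 (chr11:3963965-3963994, plus strand): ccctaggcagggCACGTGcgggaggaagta
Rrn3 (chr16:13780472-13780501, plus strand): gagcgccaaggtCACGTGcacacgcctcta
Rrn3 (chr16:13780639-13780668, plus strand): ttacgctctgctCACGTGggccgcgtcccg
Tsr1 (chr11:74898092-74898121, plus strand): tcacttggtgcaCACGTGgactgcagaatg
Utp20 (chr10:88826765-88826789, minus strand): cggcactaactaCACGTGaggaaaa
Wdr43 (chr17:71616220-71616249, plus strand): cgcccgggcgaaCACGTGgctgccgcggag
The site lies before the start in Nop2 and Rrn3 (60 bases before it in Nop2, 215 and 48 in Rrn3) and after it in Pes1, Wdr43, Tsr1, Ltv1 and Utp20. The start is that of RefSeq: for Nop2, Rrn3 and Utp20 the 25 bases after it were not found in a GENCODE transcript of the gene, so the place of their sites holds for the RefSeq start alone. For Nop2 and Rrn3 the 250 bases before the start are printed whole, again with CACGTG in capitals, as their sites lie there.
Nop2 (chr6:125131633-125131882, plus strand): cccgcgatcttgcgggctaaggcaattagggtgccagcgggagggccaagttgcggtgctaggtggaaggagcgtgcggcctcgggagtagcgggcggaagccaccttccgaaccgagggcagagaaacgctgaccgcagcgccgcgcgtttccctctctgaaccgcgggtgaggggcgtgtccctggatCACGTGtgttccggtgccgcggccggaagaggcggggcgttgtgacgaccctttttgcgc
Rrn3 (chr16:13780449-13780698, plus strand): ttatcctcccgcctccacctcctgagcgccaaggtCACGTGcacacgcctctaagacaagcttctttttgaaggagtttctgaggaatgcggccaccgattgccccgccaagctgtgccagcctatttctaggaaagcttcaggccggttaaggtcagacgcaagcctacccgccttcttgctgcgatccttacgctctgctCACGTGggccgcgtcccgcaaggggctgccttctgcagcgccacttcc
Of the 7 genes with the site 6 rose at E18 on the deposited values and 1 (Pes1) under all 3 scalings, against 21 and 9 of the 23 genes with an entry and no site. Fbl and Npm1, which also rose under all 3, had no entry. Nop2 differed by 0.92 ± 0.27 at E18 on the deposited values and Rrn3, with 2 sites, by 0.68 ± 0.34, which did not pass.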

How the data were processed

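The authors deposited TPM values for 48432 genes in 6 samples. Per the submitters' processing notes the reads were handled with STAR 2.4.2a, Cuffdiff 2.2.1, Picard 1.119, bcl2fastq 2.17.1.14, HTSeq, DESeq2 and Trimmomatic, on GRCm38 (mm10). What each tool did, and which annotation was used, is not given in the sources used here. Libraries were made with a stranded mRNA kit, per the labels' protocols. Column names count from 0 and sample titles from 1, and columns were therefore tied to a group and not to a title.

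Gene symbols, positions and exon lengths came from GENCODE M21, which held 48053 of the identifiers. Tests covered the 14307 genes that reached 1 TPM in 2 or more of the 6 samples. For log2(TPM + 1) of all 6 samples, group means were estimated in a linear model (limma 3.58.1 in R 4.3.3), with empirical Bayes variances that follow the mean and 3 residual degrees of freedom. The tests are two-sided, with Benjamini-Hochberg adjustment over all genes tested and a threshold of 0.05. No count test was possible without counts. A fold change on the log2(TPM + 1) scale understates the change of low genes. The fit was tested on simulated data.

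The members and the lists were chosen with earlier results of these data known. Named genes are the 5 highest in mean TPM and, in each comparison, up to 6 past the threshold per direction with the smallest adjusted p, or the 5 with the smallest p where none passed. Of the other pathway lists up to 4 genes per list are named. Some genes outside this rule, among them the genes listed by name in a count, were named after their values were seen. The alternatives tried were pseudocounts of 0.1 and 5, a filter on a mean of 5 TPM or none, median-ratio scaling, TPM rescaled without the 50 highest and the erythroid genes, the column number as a block, only the compared groups in the fit, a correction for exon length, an adjusted p of 0.01, and each sample left out in turn.

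Promoter sequences are from RefSeq on GRCm38.p6. The 25 bases after the start were found in a GENCODE transcript of the same gene for 27 of the 34 windows of the members; Nop2, Rrn3 and Utp20 are among the 7 others. As a departure from the rule, which allowed whole promoters, bases after the start are printed only as short windows around a site. Protein sequences were not used here.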

Additional observations from a re-analysis of the deposited data

How the results depend on the processing

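Counts out of the 35 genes are given here. In DDC fed against normal fed adults the count of rises, 0 on the deposited values, was 2 with a replicate block (Nhp2 and Ncl) and ran from 0 to 13 with a sample left out. The count of falls, also 0, was 14 under median-ratio scaling, 11 when corrected for exon length, 1 after rescaling without the 50 highest and the erythroid genes, and 0 to 5 with a sample left out. At E18 against normal fed adults the 31 rises became 14 under median-ratio scaling and 14 when corrected for exon length. The 1 fall became 3 and 2 under these, 0 with only the compared groups in the fit, 0 at an adjusted p of 0.01, and 0 to 1 with a sample left out. In DDC fed adults against E18 the count of rises, 0, was 1 under median-ratio scaling and 1 when corrected for exon length, and the 29 falls ran from 16 to 31 with a sample left out, the lowest counts being 16 without E18 sample 1 and 18 without E18 sample 0. The other alternatives for these counts stayed within 1.5 times the value on the deposited data.

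For 33 of the 105 pairs of a gene and a comparison, those the naming rule picks and those that did not pass in the comparisons with E18, 528 values were computed under the alternatives. Of these 472 kept their direction and their side of the threshold, 24 passed it only under the alternative, 9 no longer passed it, and 23 turned in sign. Over all 105 pairs, median-ratio scaling and the exon-length correction together turned the sign 57 times. In DDC fed against normal fed adults, median-ratio scaling gave -0.35 for Npm1, -0.50 for Fbl, -0.048 for Nhp2 and -0.039 for Pes1, and the exon-length correction -0.17 for Npm1 and -0.41 for Fbl. Rescaling without the 50 highest genes gave -0.014 for Fbl. With a sample left out, Fbl ran from -0.037 to 0.35 and Nop58 from -0.11 to 0.069. At E18 against normal fed adults, median-ratio scaling gave -0.46 for Rrn3, -0.79 for Bop1 and -1.03 for Nop10, the exon-length correction -0.43, -0.51 and -0.33, and rescaling -0.067 for Nop10. Nop10 ran from -0.34 to 0.66 with a sample left out. In DDC fed adults against E18, median-ratio scaling gave 0.19 for Nhp2, 0.29 for Bop1 and 0.36 for Ddx56, and the exon-length correction 0.15 for Bop1 and 0.16 for Ddx56. The cause was not tested.

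The column numbers 0 and 1 were checked as pairs. The correlation of sample 1 minus sample 0 across genes was 0.23 between normal fed and DDC fed. It was 0.14 between normal fed and E18 and 0.061 between DDC fed and E18. Whether samples of the same number were handled together was not tested, and the column names give only the number. The replicate block gave the 2 rises named above in DDC fed adults, 31 rises at E18 and 31 falls of DDC fed adults against E18. Over the 14307 genes tested these counts were 5102, 9157 and 6801. Depth is unknown, and with 2 samples per group and 3 residual degrees of freedom the precision is low: the median half-width of the 95% intervals was 0.57.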
